A study of Mus musculus with 4 samples.

Results

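Kainate receptors and delta receptors are 2 branches of the ionotropic glutamate receptor family, and 6 of their genes are described here out of the 46983 genes in the count files: Grik1, Grik2, Grik3, Grik4 and Grik5, which encode the kainate receptor subunits GluK1 to GluK5, and Grid1, which encodes the delta receptor GluD1. They were picked by symbol as a gene family, with earlier results of these data known, and all 6 were detected. The study isolated nuclei from forebrain hemispheres of male C57Black/6 mice aged 3 months and sequenced their RNA in droplets, in a sham control and after permanent middle cerebral artery occlusion (MCAO), with libraries labelled day 1, day 3 and day 7. In this stroke model the vessel is closed by coagulation and then cut, which leaves a small lesion in the parietal cortex. Each group was 1 library made from 3 pooled hemispheres, so group and library cannot be told apart, no difference between groups has a replicate check, no test between groups was possible, and the intervals given cover counting error only. The labels name intact cortex as control tissue in the surgical protocol and forebrain hemispheres elsewhere, and 238 nuclei of the sham library resembled striatal projection neurons. The study's own numbers of nuclei by time point match the deposited libraries only if the labels day 3 and day 7 are exchanged. The deposited labels were kept, so "day 3" and "day 7" mean the libraries that carry these labels.

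Kainate receptors are tetramers. GluK1, GluK2 and GluK3 can form channels by themselves and bind kainate with lower affinity, whereas GluK4 and GluK5 bind it with higher affinity and need a partner of the first kind to reach the membrane as a working receptor. Kainate receptors sit on both sides of synapses, where they tune transmitter release and carry slow currents, and Neto1 and Neto2 are auxiliary subunits that slow them further. GluD1 is not gated by glutamate in the usual way. It acts as a synapse organiser that binds cerebellins, small secreted proteins that in turn bind presynaptic neurexins.

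By the GENCODE annotation of GRCm38, Grik1 spans chr16:87895900-88290265 on the minus strand, Grik2 chr10:49094833-49788766 on the minus strand, Grik3 chr4:125490700-125714173 on the plus strand, Grik4 chr9:42518135-42944493 on the minus strand, Grik5 chr7:25009849-25072346 on the minus strand and Grid1 chr14:34820108-35583379 on the plus strand. Grid1 is the longest gene, at 763 kb, and Grik5 the shortest, at 62.5 kb. Because reads from introns were counted, a long gene offers more places to be read than a short one, so levels are compared between genes only per 100 kb of gene length. Short genes lie inside 4 of the 6 on the same strand, namely Gm26543 in Grik2, Ftl2-ps and Mir692-2 in Grik3, Gm24420 and Gm27509 in Grik4, and Mir346 and Gm27617 in Grid1. None of them held a UMI in the classes examined (UMI, unique molecular identifier, 1 counted RNA molecule).

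The libraries held 23285489 to 42963698 UMIs, and 1018 to 3067 nuclei per library were kept, 7775 in all. The median depth was 5400 to 10933 UMIs per nucleus and was highest on day 1. Nuclei formed 32 clusters, and each cluster was named from marker RNA alone, so every class name means "like that cell type". Clusters stayed unnamed where their markers were weak or mixed between classes, or where mitochondrial genes were among the leading ones. They held 9.45 to 11.7% of the nuclei of a library. In 12 classes every library held at least 30 nuclei, and these 12 classes, with 6019 nuclei, carry the comparisons. A level is the UMIs of a gene per 1e6 UMIs (counts per 1e6, CPM) of the class in 1 library, with a 95% exact Poisson interval. Barcodes shared between any pair of libraries numbered 0 to 3. RNA outside nuclei, read from droplets with few UMIs, held Grik1 at 30.5 to 40.4 CPM, Grik2 at 589 to 852, Grik3 at 56.2 to 75.8, Grik4 at 49.9 to 69.0, Grik5 at 129 to 150.5 and Grid1 at 179 to 249. Endothelial nuclei, taken as a background class, held Grik2 at 171 CPM (143 to 203), which was 21.9% of its droplet level, and Grik1 at 3.94 CPM (0.812 to 11.5). By library that level of Grik2 ran from 23.1 to 222 CPM, highest on day 3. Other classes that could serve as background were higher, with Grik2 at 320 CPM in vascular fibroblasts and 506 CPM in microglia, and Grik4 there at 122 and 101% of its droplet level.

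Grik1 was the most restricted member. It was highest in Lhx6 interneurons, the GABA neurons of the cortex and striatum that include the somatostatin and parvalbumin types, at 254 CPM in the sham library, 322 on day 1, 377 on day 3 and 391 on day 7. The other subcortical neurons, a class led by Baiap3, came next at 174, 190.2, 190.4 and 163 CPM, and no library of this class reached the lowest one of the interneurons. Glutamatergic cluster 9, a neuron class led by Ndst4, followed with 146, 47.9, 102 and 136 CPM. From this class down to striatal projection neurons each class overlapped its neighbour in the order. Oligodendrocyte precursor cells (OPCs) held Grik1 at 63.7 to 102 CPM, above the droplet level in every library. Oligodendrocytes, at 15.6 to 51.9, and astrocytes, at 12.03 to 55.2, had ranges that included the droplet level. Lowest in mean level were striatal projection neurons, at 3.38 to 6.77 CPM, and upper-layer cortical glutamatergic neurons, at 1.34 to 2.95 CPM, far under the droplet level. The mean level in Lhx6 interneurons was 155-fold that in upper-layer neurons, the widest span of the 6 genes. Adarb2 interneurons, which include the Vip cells and were too few for the 12 classes at 123 nuclei, held still more Grik1, at 339.9, 777, 593 and 496 CPM.

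Grik2 was spread over many classes. Striatal projection neurons were highest at 2567 CPM in the sham library, 2101 on day 1, 2834 on day 3 and 2331 on day 7. Lhx6 interneurons held 2074, 1794, 2095 and 1914 CPM, and the other subcortical neurons held 1872, 2195, 1967 and 1751 CPM. The other subcortical neurons were above striatal projection neurons on day 1 alone, so the order of the leading class held in 3 of the 4 libraries. None of these 3 classes overlapped with OPCs, at 1158 to 1533 CPM, which in turn overlapped with oligodendrocytes. In OPCs a single nucleus held 31.6% of the sham UMIs of Grik2, and 1 nucleus held 22.9% of those on day 3. Oligodendrocytes held Grik2 at 1113, 978, 1339 and 1303 CPM, above every glutamatergic class of the 12 and above the droplets in each library. The glutamatergic classes of the 12 lay between 413 and 978 CPM and overlapped with one another from cluster 9 down to middle-layer neurons. Of these, only cluster 9 was above the droplets in each library. Deep-layer neurons, at 648 to 855 CPM, barely passed the range of the droplets, and cluster 3, at 626 to 824 CPM, lay within it. Upper-layer neurons, at 563 to 736 CPM, and middle-layer neurons, at 413 to 671 CPM, were under the droplets of the same library each time. Astrocytes, at 546 to 804 CPM, and microglia, at 373 to 801 CPM, were within or under the range of the droplets. From the highest class to the lowest the mean level differed only 4.70-fold. Adarb2 interneurons again exceeded the 12 classes, at 2591 to 3674 CPM.

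Grik3 marked the deep cortex. Deep-layer cortical glutamatergic neurons, a class led by Hs3st4, held it at 516, 550.4, 602 and 549 CPM, while no library of another of the 12 classes exceeded 252 CPM. Glutamatergic cluster 3, led by Rspo2, held 218 to 252 CPM, and Lhx6 interneurons 204 to 245. Below them OPCs, striatal projection neurons and the other subcortical neurons ran together between 116 and 207 CPM. Upper-layer neurons were lowest in mean level, at 16.3, 18.7, 17.0 and 4.03 CPM, so the deep and upper layers of the same tissue stood 39.6-fold apart in mean level. Near-projecting cortical neurons, another deep type with only 47 nuclei, held 407 to 706 CPM.

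Grik4, the first of the high-affinity subunits, was shared by deep-layer neurons and OPCs. Deep-layer neurons held it at 332, 354, 391 and 381 CPM and OPCs at 293, 374, 355 and 399.5 CPM. The ranges of these classes overlapped, each was the higher in 2 of the 4 libraries, and both lay above all other classes of the 12. Upper-layer neurons held 143, 224, 243 and 264 CPM and the other subcortical neurons 178 to 230.4 CPM. Striatal projection neurons, which led for Grik2, had the lowest mean level of Grik4, at 25.6 to 59.3 CPM and within or under the droplet level, but middle-layer neurons and glutamatergic cluster 9 were lower in the sham library and on day 7. The highest level of Grik4 lay outside the 12 classes, in glutamatergic cluster 20, a class of 112 nuclei led by Shisa6, at 745, 451, 571 and 722 CPM from 5, 18, 45 and 44 nuclei.

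Grik5, the second high-affinity subunit, was the most even of the kainate genes beside Grik2, with the same 4.70-fold span of mean levels. Striatal projection neurons held 249, 211, 255 and 254 CPM and deep-layer neurons 205, 203, 214 and 189 CPM. Every class overlapped its neighbour in the order down to middle-layer neurons, at 97.8 to 127 CPM. Lhx6 interneurons, which led for Grik1, were low for Grik5 at 73.5 to 95.9 CPM, below every other neuron class of the 12. Oligodendrocytes were lowest in mean level, at 42.5 to 67.7 CPM, although microglia held less on day 3, at 40.7 CPM, and on day 7, at 40.2 CPM. Oligodendrocytes stayed under the level of the droplets. Their precursors held 113 to 157 CPM, above the droplets of the same library in the sham library alone.

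Grid1 was highest in a glial class. OPCs held it at 993, 734, 946 and 922 CPM, ahead of every other of the 12 classes in each of the 4 libraries. Striatal projection neurons followed at 746, 701, 833 and 779 CPM and the other subcortical neurons at 820.5, 682, 719 and 753 CPM, and the ranges of these 3 classes overlapped. The glutamatergic classes of the 12 and Lhx6 interneurons lay between 286 and 538 CPM, and astrocytes were steady at 296 to 332 CPM. Oligodendrocytes were lowest at 65.2, 54.3, 98.1 and 108 CPM, values that pool 3 clusters, and without the smallest of them, cluster 24, they held 61.7 CPM in the sham library, 62.6 on day 3 and 57.7 on day 7. Grid1 was therefore 11.1-fold higher in mean level in the precursors than in the oligodendrocyte class, whereas Grik2 in these classes had overlapping ranges.

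**Figure D1:**
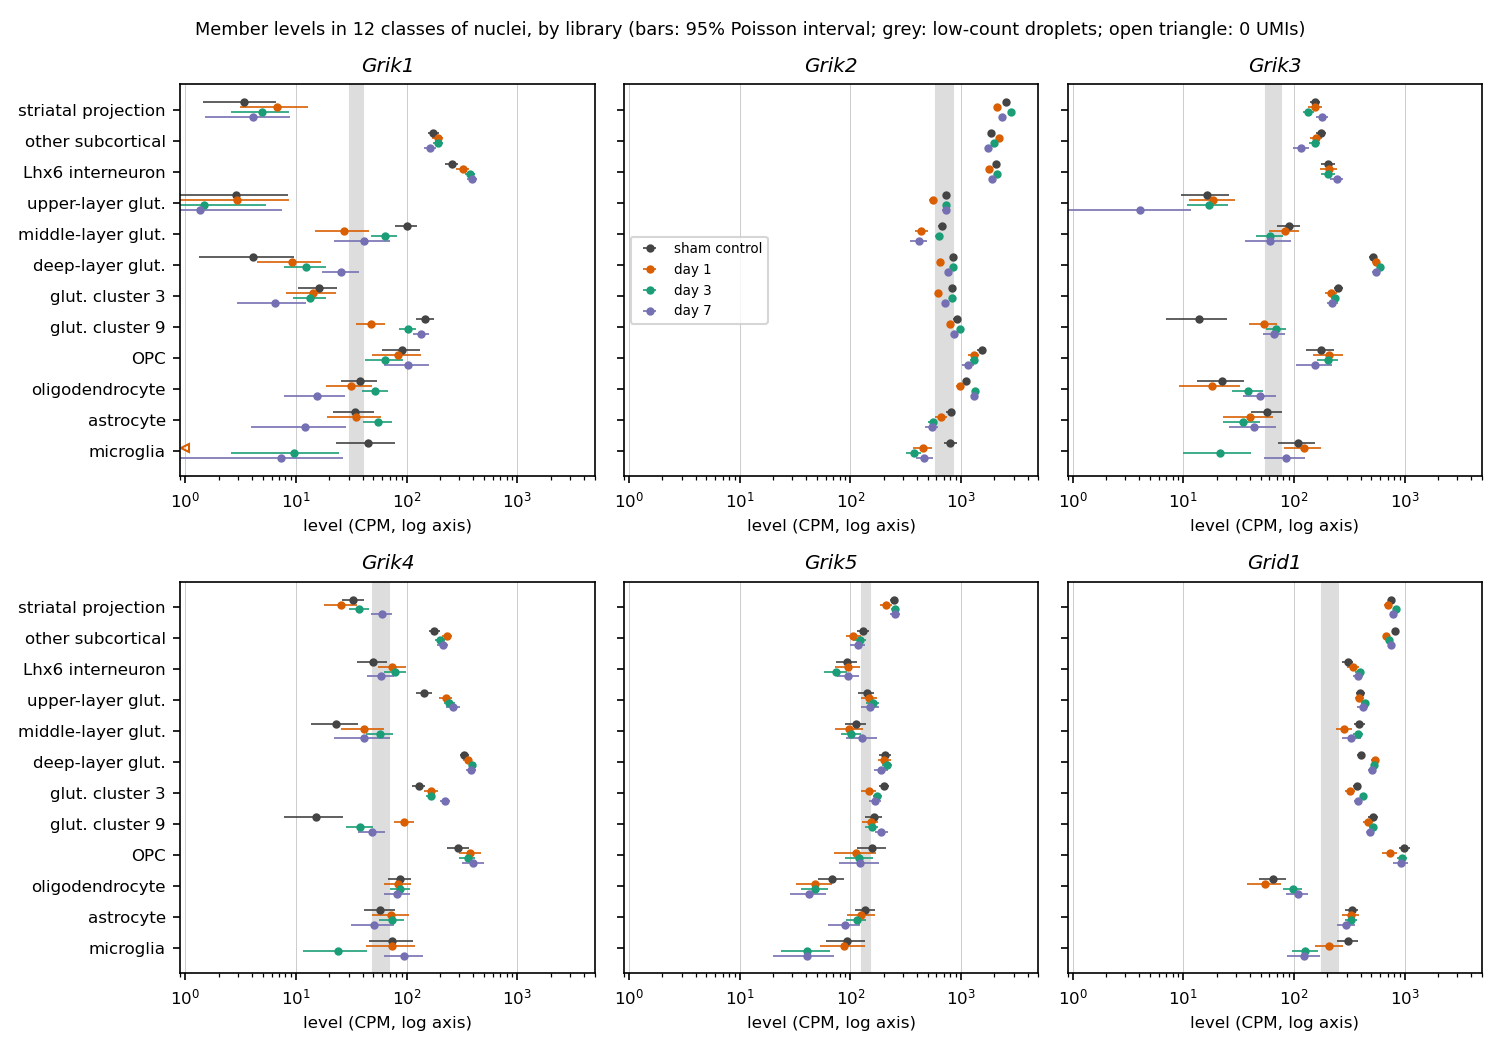
Level of each member in CPM on a log axis for the 12 classes. Each coloured point is 1 library with its 95% Poisson interval, an open triangle marks 0 UMIs, and the grey band is the range of the low-count droplets. In the mean over the libraries, Grik1 and Grik3 drop by more than 10-fold between classes and Grik2 and Grik5 stay within about 5-fold, while their single libraries spread wider. Grid1 is lowest in oligodendrocytes.

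The balance between Grik2 and Grid1 set oligodendrocytes apart from the RNA outside nuclei. Oligodendrocytes held 12.1 to 18 UMIs of Grik2 for each UMI of Grid1, whereas the droplets held 3.24 to 3.80. The precursors held 1.26 to 1.77, and microglia, at 2.15 to 3.76, were near the droplets. In striatal projection neurons, with 2.99 to 3.44, the ratio was also near that of the droplets although both genes stood above the droplet level in every library.

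Dividing each level by gene length allowed the kainate subunits to be set side by side, as shares of their summed level per 100 kb, averaged over the 4 libraries. Grik2 made up 57.5% in oligodendrocytes (51.9 to 62.4% over the libraries), 45.6% in Lhx6 interneurons, 44.4% in the other subcortical neurons and 43.03% in striatal projection neurons. Grik5 made up 60.4% in upper-layer neurons, 58.2% in glutamatergic cluster 9 and 57.8% in astrocytes, and it was close to Grik2 in striatal projection neurons at 47.1%. Thus per length a high-affinity subunit led in the cortical glutamatergic classes and in astrocytes, and Grik2 led in Lhx6 interneurons, the other subcortical neurons and oligodendrocytes. In astrocytes, microglia and middle-layer neurons Grik2 and Grik5 both lay within or under the range of the droplets, so the make-up of these classes is not told apart from that of RNA outside nuclei. In upper-layer neurons Grik2, at 563 to 736 CPM, was under the droplets of the same library each time. Grik5 there, at 140 to 160 CPM, was near the 129 to 150.5 CPM of the droplets, so the share of 60.4% carries a like limit. Deep-layer neurons combined 41.96% Grik5, 32.1% Grik3, 14.5% Grik2 and 11.0% Grik4, and OPCs combined 35.0% Grik5, 32.6% Grik2, 14.4% Grik4 and 14.2% Grik3. Grik1 reached 13.6% in Lhx6 interneurons. These shares are of nuclear RNA over a whole gene and do not measure protein.

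**Figure D2:**
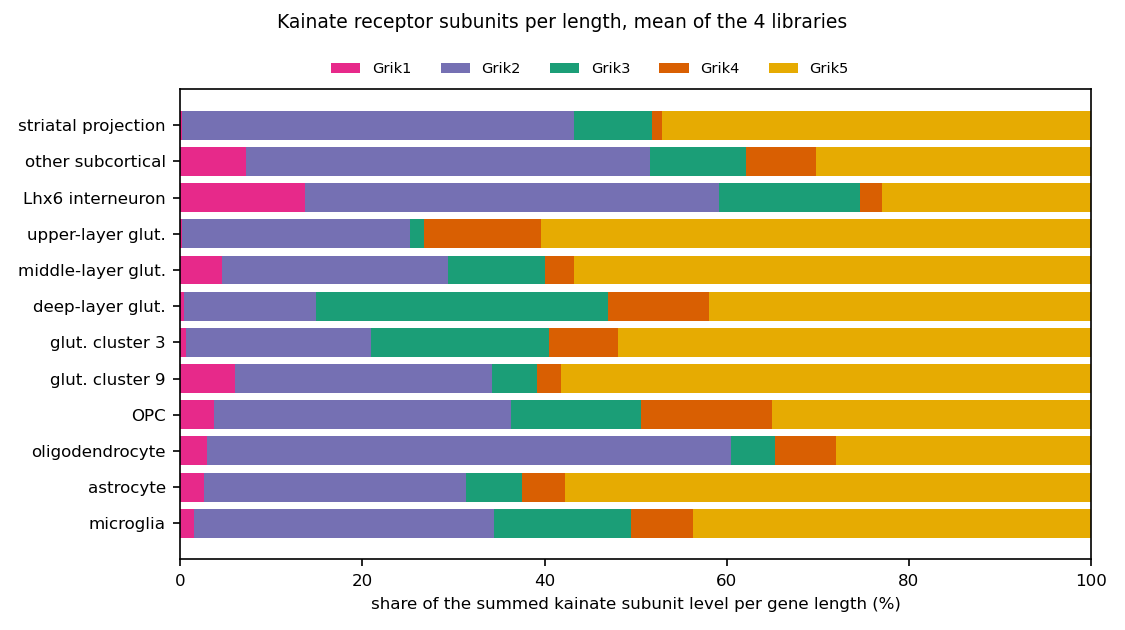
Share in percent of each kainate subunit in the summed level per gene length, as the mean of the 4 libraries, for the 12 classes. Grik2 fills most of the oligodendrocyte bar, Grik3 is widest in deep-layer neurons and Grik1 is visible mainly in Lhx6 interneurons.

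Of the named classes, oligodendrocytes and Lhx6 interneurons each held 3 clusters, and the members differed between these clusters. All values of this kind are levels over the summed libraries, and since the clusters were formed from the same nuclei they are descriptions. Among the 3 oligodendrocyte clusters, cluster 24, with 70 nuclei and led by Cnksr3, held Grik2 at 2302 CPM (2162 to 2449) and Grid1 at 247 CPM (203 to 299). The large cluster 1, with 769 nuclei, held Grik2 at 1085 CPM and Grid1 at 61.9 CPM, and cluster 8, with 341 nuclei and led by Anln, held them at 940 and 50.1 CPM. Cluster 24 thus had the most Grik2 of the lineage, above the 1338 CPM of OPCs, with Grid1 between the precursors and the other 2 clusters. Grik1 differed the other way, at 73.2 CPM (57.6 to 91.6) in cluster 8 against 12.97 CPM in cluster 1. Grik3 stood at 8.66 CPM in cluster 8, 31.8 CPM in cluster 1 and 96.2 CPM (69.3 to 130) in cluster 24.

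Among the Lhx6 interneurons, cluster 22, with 96 nuclei and led by Sst and Npy, held Grik1 at 591 CPM, Grik2 at 2619 CPM and Grik3 at 393 CPM. Cluster 15, with 171 nuclei and led by Kcnmb2 and Eya4, held Grik1 at 259.6 CPM (237 to 284), Grik2 at 1523 CPM and Grik3 at 82.8 CPM. Cluster 27, with 50 nuclei, held little Grik1 at 121 CPM but Grik3 at 351 CPM (301 to 406) and Grik2 at 2434 CPM. The Sst cluster therefore carried all 3 low-affinity subunits, while cluster 27 was lowest for Grik1 and cluster 15 was lowest for both Grik2 and Grik3. Grid1 ran from 170.4 CPM in cluster 27 to 451 CPM in cluster 22.

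**Figure D3:**
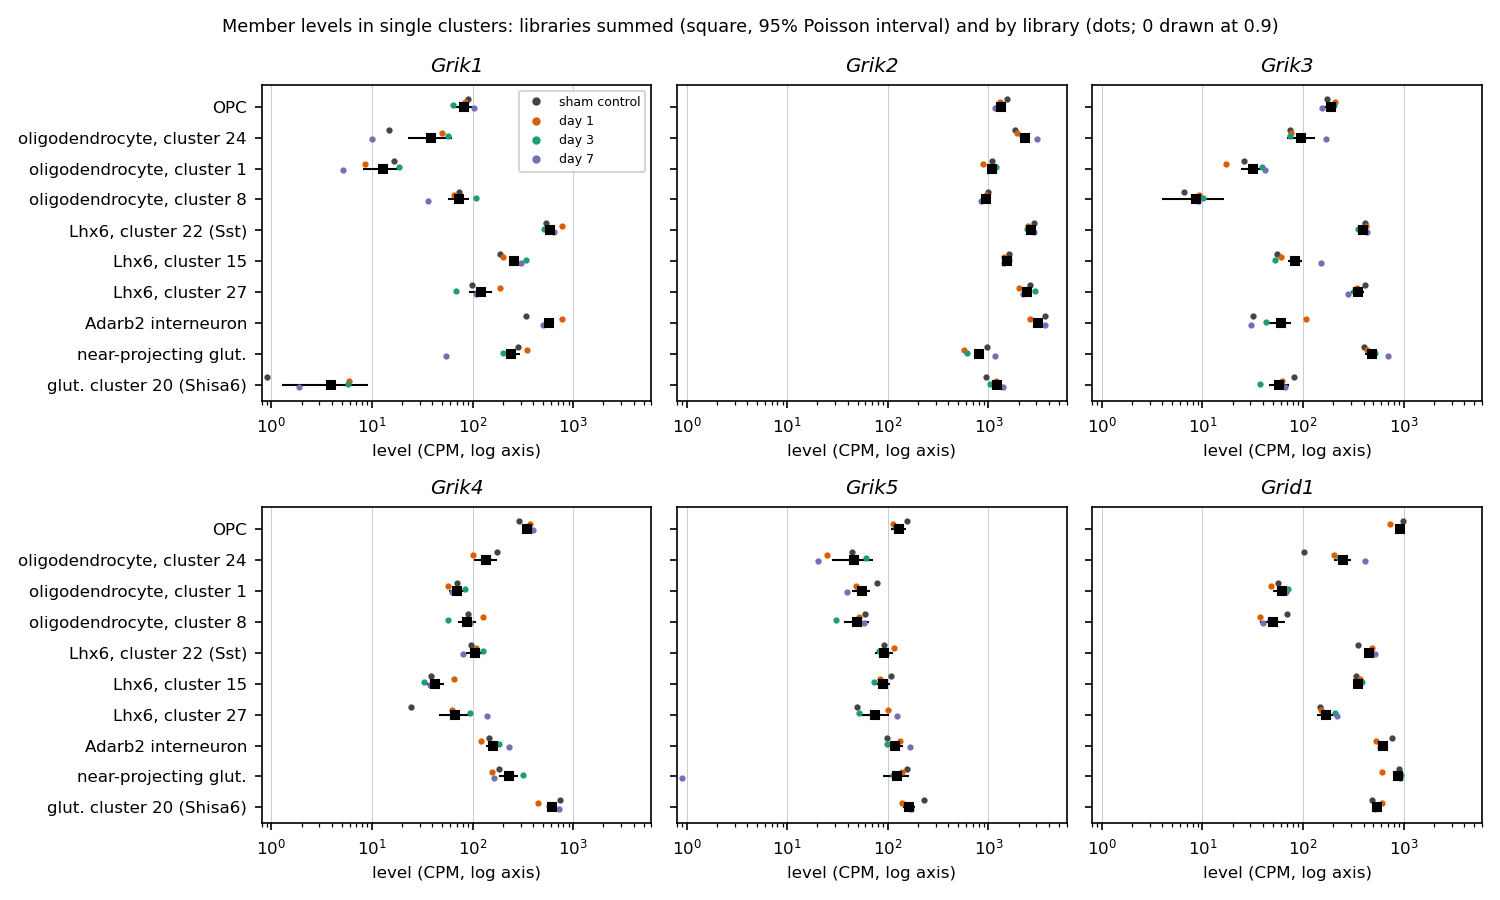
Level of each member in CPM on a log axis in 10 clusters, as the sum of the libraries (square with 95% Poisson interval) and by library (dots, with 0 drawn at 0.9). Grik2 is higher in oligodendrocyte cluster 24 than in clusters 1 and 8, and the Sst cluster of the Lhx6 interneurons is high for Grik1, Grik2 and Grik3 together.

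In single nuclei, the members were read as shares of nuclei with at least 1 UMI after each nucleus was thinned to 1000 UMIs. Grik2 was found in 88.3% of striatal projection neurons (85.7 to 90.5%, exact Clopper-Pearson interval), in 79.5% of Lhx6 interneurons, in 63.0% of OPCs and in 59.2% of oligodendrocytes (56.4 to 62.1%). Without thinning the shares of Grik2 were 99.9, 96.5, 92.2 and 80.5%. Endothelial nuclei, which serve as the background, held Grik2 in 12.9% (7.80 to 19.6%) after thinning and in 35.7% without it, at a median depth of 3394.5 UMIs against 2146.5 in oligodendrocytes and 9120 in striatal projection neurons. Oligodendrocytes were thus shallower than the background class and still far above it for Grik2.

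Grid1 was found in 64.3% of OPCs (57.8 to 70.5%) after thinning and in 91.7% without it. Only 4.49% of oligodendrocytes (3.38 to 5.83%) held Grid1 after thinning and 10.7% without it, which was not above the 7.14% (3.48 to 12.7%) of endothelial nuclei after thinning, so the share in the class as a whole is read as background. Cluster 24, at a Grid1 level of 247 CPM (203 to 299), stood above the 80.0 CPM (61.2 to 103) of endothelial nuclei, but its interval overlapped that of microglia, at 183 CPM (160 to 209), and the range of the droplets. Grik4 was found in 36.5% of OPCs, 35.7% of cluster 20 and 27.5% of deep-layer neurons after thinning, against 1.43% of endothelial nuclei. Grik3 was found in 42.98% of deep-layer neurons (38.5 to 47.6%) and 0.862% of upper-layer neurons, and the endothelial share was 0.714%. The upper-layer share of Grik3 is therefore at the background. Grik1 was found in 24.3% of Lhx6 interneurons, 32.5% of Adarb2 interneurons and 7.39% of OPCs, against 0.714% of endothelial nuclei. Grik5, found in 21.4% of both striatal projection neurons and deep-layer neurons after thinning, was found in 2.14% of endothelial nuclei.

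Since GluK4 and GluK5 need a low-affinity partner, it was asked how often their RNA was found together with that of Grik1, Grik2 or Grik3 in 1 nucleus. After thinning to 1000 UMIs, 1149 of 1682 nuclei with a UMI of Grik4 or Grik5 also held a partner, or 68.3% (66.0 to 70.5%). Of the 6093 nuclei without such a UMI, 62.0% (60.7 to 63.2%) held one. By library the share with a partner was 72.9, 62.5, 67.2 and 68.1%. In each of the 12 classes the intervals of the shares with and without Grik4 or Grik5 overlapped. The shares were 89.9 against 91.2% in striatal projection neurons and 62.5 against 61.9% in oligodendrocytes. In OPCs the share was 78.8% (69.4 to 86.4%) with Grik4 or Grik5 and 64.9% (56.1 to 73.0%) without. In middle-layer neurons it was 58.3 against 48.1%. In Lhx6 interneurons it was the lower one, at 80.0 against 87.8%, and so it was in upper-layer neurons, at 39.5% (30.4 to 49.1%) against 51.3% (44.7 to 57.8%). With 2000 UMIs per nucleus the pooled share was 86.0%, so these percentages depend on depth.

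The comparison of each day with the sham library asked which subunits stood at another level after the occlusion. A ratio was counted as past the fold when it was at least 1.5 or at most 1/1.5 and both sums together held at least 50 UMIs. Of the 72 pairs of a member and a class, 59 could be compared on day 1, 64 on day 3 and 60 on day 7. On day 1, 4 ratios were past the fold upward, or 6.78%, against 6.42% of all gene and class comparisons, and 4 downward, against 6.43%. On day 3 it was 8 upward, or 12.5%, against 5.37%, and 4 downward, or 6.25%, against 6.11%. On day 7 it was 8 upward, or 13.3%, against 5.04%, and 8 downward, also 13.3%, against 8.12%. The median log2 ratio of the members was -0.15, 0.01 and -0.10 on the 3 days, next to -0.00, -0.03 and -0.05 over all genes, so the typical member was near its sham level. Of the 36 ratios past the fold, 7 stayed past 1.5-fold under each other setting that gave a value for them, and 5 of these 7 were in glutamatergic cluster 9. In a finer clustering no cluster took the name of that class, so this setting gave no value for it. The other 2 were Grik3 in oligodendrocytes and Grik4 in upper-layer neurons, both on day 7, and the latter, at 1.85, is within a fold of 2.

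Grik4 was the member with the most upward ratios, 11 of 31, and none downward, beside 6.42, 5.37 and 5.04% upward over all genes on the 3 days. The days of a class share 1 sham level, so the 3 ratios of upper-layer neurons, and likewise the 3 of glutamatergic cluster 9, are not separate observations. In the droplets Grik4 was also lowest in the sham library, at 49.9 CPM against 53.8, 65.6 and 69.0 CPM on the 3 days. These droplet levels differ by less than the 11 ratios, so subtracting a fixed 10% of free RNA could only raise the ratios. The part of free RNA in the ratios of Grik4 was therefore not tested. In upper-layer neurons its level was 143 CPM in the sham library and 224, 243 and 264 CPM on the 3 days, which are ratios of 1.57 (1.27 to 1.94), 1.70 (1.40 to 2.08) and 1.85 (1.49 to 2.31). All 3 libraries after the occlusion were above the sham library, and 61 sham nuclei and 53, 106 and 53 later nuclei carried a UMI, with no nucleus holding over 9.21% of the UMIs. Over all genes of this class 8.17, 5.01 and 5.46% of the ratios were past the fold upward on the 3 days. The ratio of Grik4 on day 1 was within the fold as the mean of single nuclei, at 1.45. That on day 3 was within it with the libraries merged and not integrated, at 1.46. In glutamatergic cluster 3 the level of Grik4 was 128 CPM in the sham library and 223 on day 7, a ratio of 1.74 (1.45 to 2.08). With a finer clustering and with the libraries merged and not integrated it was within the fold, down to 1.43. In striatal projection neurons the ratio on day 7 was 1.80 (1.31 to 2.48), between levels of 32.9 and 59.3 CPM that both lie near the droplet level. After thinning and with the libraries merged it was within the fold, down to 1.18. In middle-layer neurons on day 3 the ratio was 2.49 (1.43 to 4.54), from 18 sham UMIs, and it was 1.42 with a finer clustering. In Lhx6 interneurons on days 1 and 3 the ratios were 1.50 (0.983 to 2.31) and 1.598 (1.09 to 2.37), from 44 sham UMIs. Other settings brought the Lhx6 ratios down to 1.36 and 1.27, within the fold. In OPCs, where the gene was among its highest, the ratios of 1.28, 1.21 and 1.36 stayed within the fold.

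Glutamatergic cluster 9 held the largest ratios, at low sham counts. Grik4 was at 15.1 CPM in the sham library, from 12 UMIs in 9 nuclei, and at 94.7, 37.9 and 48.4 CPM afterwards, with ratios of 6.27 (3.41 to 12.6), 2.50 (1.31 to 5.17) and 3.20 (1.69 to 6.57). Grik3 was at 13.9 CPM, from 11 UMIs in 6 nuclei, and at 53.2, 68.9 and 66.0 CPM afterwards, with ratios of 3.84 (1.97 to 8.18), 4.97 (2.65 to 10.3) and 4.76 (2.52 to 9.95). Sham was thus the lowest library for both, in a class where 6.57, 4.61 and 5.89% of all genes were past the fold upward. Grik1 went the other way on day 1, at 47.9 CPM against 146 CPM in the sham library, a ratio of 0.328 (0.227 to 0.466). With the libraries merged and not integrated the ratio of Grik3 on day 7 was 1.32, within the fold, and after thinning that of Grik4 on day 3 was 0.512. The day 1 value of Grik1 rests on 45 UMIs from 10 nuclei, and 1 nucleus held 40.0% of them. This class held 62, 45, 121 and 85 nuclei, and a finer clustering split it into the same pair of clusters in every library, with 84.4 to 87.1% of its nuclei in the larger. Within the larger cluster Grik3 was at 15.7, 62.2, 72.6 and 71.7 CPM and Grik4 at 17.1, 109, 30.6 and 54.5 CPM, so both kept their order against the sham library. Grik1 was at 130, 10.1, 50.7 and 104 CPM there, with sham again the highest, while over the whole class its day 3 ratio of 0.699 was within the fold. A single nucleus held 54.5% of the sham UMIs of Grik3 and 36.0% of the day 1 UMIs of Grik4. The summed markers of subcortical glutamatergic neurons, 10 of 12 of them with a UMI, were at 2988, 2072, 2482 and 2342 CPM in this class, highest in the sham library, and whether a different mix of neurons contributed to these ratios was not tested.

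Grik2 had no upward ratio in 36 comparisons and 5 downward. In middle-layer neurons it was at 671 CPM in the sham library and at 438, 633 and 413 CPM afterwards, with ratios of 0.654 (0.556 to 0.766) on day 1 and 0.616 (0.504 to 0.748) on day 7, while day 3 was close to sham. Grik1 in these neurons was at 99.6, 27.4, 63.1 and 41.3 CPM, with ratios of 0.275 (0.144 to 0.489), 0.633 (0.440 to 0.905) and 0.415 (0.211 to 0.751). Middle-layer neurons had 83, 33, 114 and 37 nuclei, 6.06, 4.65 and 8.51% of all genes in this class were past the fold downward, and with a finer clustering none of these 5 ratios was past it. At that resolution all nuclei of the class stayed together in 1 cluster in every library, with the same levels, and the class took in further nuclei, to 158, 68, 220 and 97, so the loss in that setting came with the added nuclei. Both ratios of Grik2 were also within the fold after thinning and as the mean of single nuclei, and over all settings they reached 0.982 and 0.888. The day 3 ratio of Grik1 was within it or reversed in 5 of 10 other settings, and after thinning it was 1.70. In astrocytes Grik2 was highest in the sham library at 804 CPM, then 658, 557 and 546, ratios that stayed just within the fold at 0.818, 0.693 and 0.679. On day 1 the ratio in striatal projection neurons was 0.818 (0.782 to 0.856), with a narrow interval from 6083 and 2792 UMIs.

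In microglia Grik2 was at 801, 449, 373 and 467 CPM, with ratios of 0.560, 0.466 and 0.583, and Grid1 was at 308, 209, 127 and 124 CPM, with ratios of 0.412 on day 3 and 0.403 on day 7. The 3 ratios of Grik2 were within the fold both with the libraries merged and not integrated and as the mean of single nuclei, and over all settings they reached 0.905, 0.925 and 0.894. That of Grid1 on day 3 was within it in these settings and after thinning, reaching 0.840, and that on day 7 after thinning, at 0.755. A single sham nucleus held 37.5% of the Grik2 UMIs and 34.9% of the Grid1 UMIs. Markers of striatal projection neurons of the direct pathway, all 17 of them detected in this class, summed to 1996, 1225, 1022 and 599 CPM, and those of Lhx6 interneurons to 875, 484, 570 and 409 CPM. Both lists were highest in the sham library, whereas upper-layer markers, 11 of 11 detected, were level at 1057 to 1156 CPM, and the part of neuronal RNA in the ratios of Grik2 and Grid1 was not tested. Microglial genes past the fold were frequent in any case, at 14.8% downward on day 3 and 11.8% on day 7 over all genes.

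In oligodendrocytes Grik2 stayed within the fold, with ratios of 0.879 (0.791 to 0.976), 1.20 (1.11 to 1.31) and 1.17 (1.07 to 1.29). Grik3 was at 22.6, 18.1, 38.7 and 49.5 CPM, with a day 3 ratio of 1.71 (0.962 to 3.17) that fell to 1.03 after thinning, and its ratio on day 7 was 2.19 (1.21 to 4.11), or 1.66 (0.771 to 3.69) from 13 sham and 18 day 7 UMIs without cluster 24. Grid1 was at 65.2, 54.3, 98.1 and 108 CPM, with ratios of 1.50 (1.07 to 2.14) on day 3 and 1.65 (1.14 to 2.39) on day 7. The higher values lay in cluster 24, which held Grid1 at 103, 201, 227 and 410 CPM from 14, 5, 34 and 17 nuclei and gave 41 of the 76 UMIs on day 7. Cluster 1 held it at 56.3, 48.2, 71.2 and 67.8 CPM and cluster 8 at 69.4, 37.2, 47.0 and 40.3 CPM. Without cluster 24, an alternative chosen after its values were seen, the ratios were 1.01 (0.667 to 1.55) on day 3 and 0.935 (0.583 to 1.49) on day 7. Over the whole class both genes stayed under the droplet level throughout. The markers of Lhx6 interneurons, 12 of 12 detected, summed to 423, 334, 618 and 378 CPM in oligodendrocytes, highest on day 3 like several neuronal lists, and their part in these ratios was not tested. On day 7 single nuclei held 25.7% of the Grik3 UMIs and 21.1% of the Grid1 UMIs. Grik5 went down in this class on day 7, with a ratio of 0.627 (0.387 to 0.997), as it did in astrocytes with 0.651 (0.432 to 0.963), and these were its only ratios past the fold. Both lay near the edge of the fold. Under TMM and DESeq2 scaling the astrocyte one was at most 0.689 and so just within it, and the oligodendrocyte one, within it in 5 of 11 other settings, was highest after thinning, at 0.802. In deep-layer neurons, which had the highest mean level of Grik3 and Grik4 among the 12 classes, none of the 5 members with enough UMIs was past the fold on any day, and of these Grid1 came closest with 1.34, 1.32 and 1.27. Grik1 was not compared there, at 5 sham UMIs and 10, 23 and 28 later ones. Among the remaining ratios past the fold, Grik1 in Lhx6 interneurons was 1.54 (1.29 to 1.83) on day 7. After thinning and as the mean of single nuclei it was within the fold, down to 1.27. Grik3 in the other subcortical neurons was 0.660 (0.542 to 0.801) on day 7, which was within the fold in 6 of 10 other settings. In astrocytes on day 3 Grik1 was at 1.63 (0.967 to 2.83) and Grik3 at 0.599 (0.355 to 0.999) of sham, from 23 and 39 sham UMIs. That of Grik1 was within the fold, down to 1.22, with no doublets removed and after thinning. That of Grik3 was within it, at 0.712, with the libraries merged and not integrated.

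**Figure D4:**
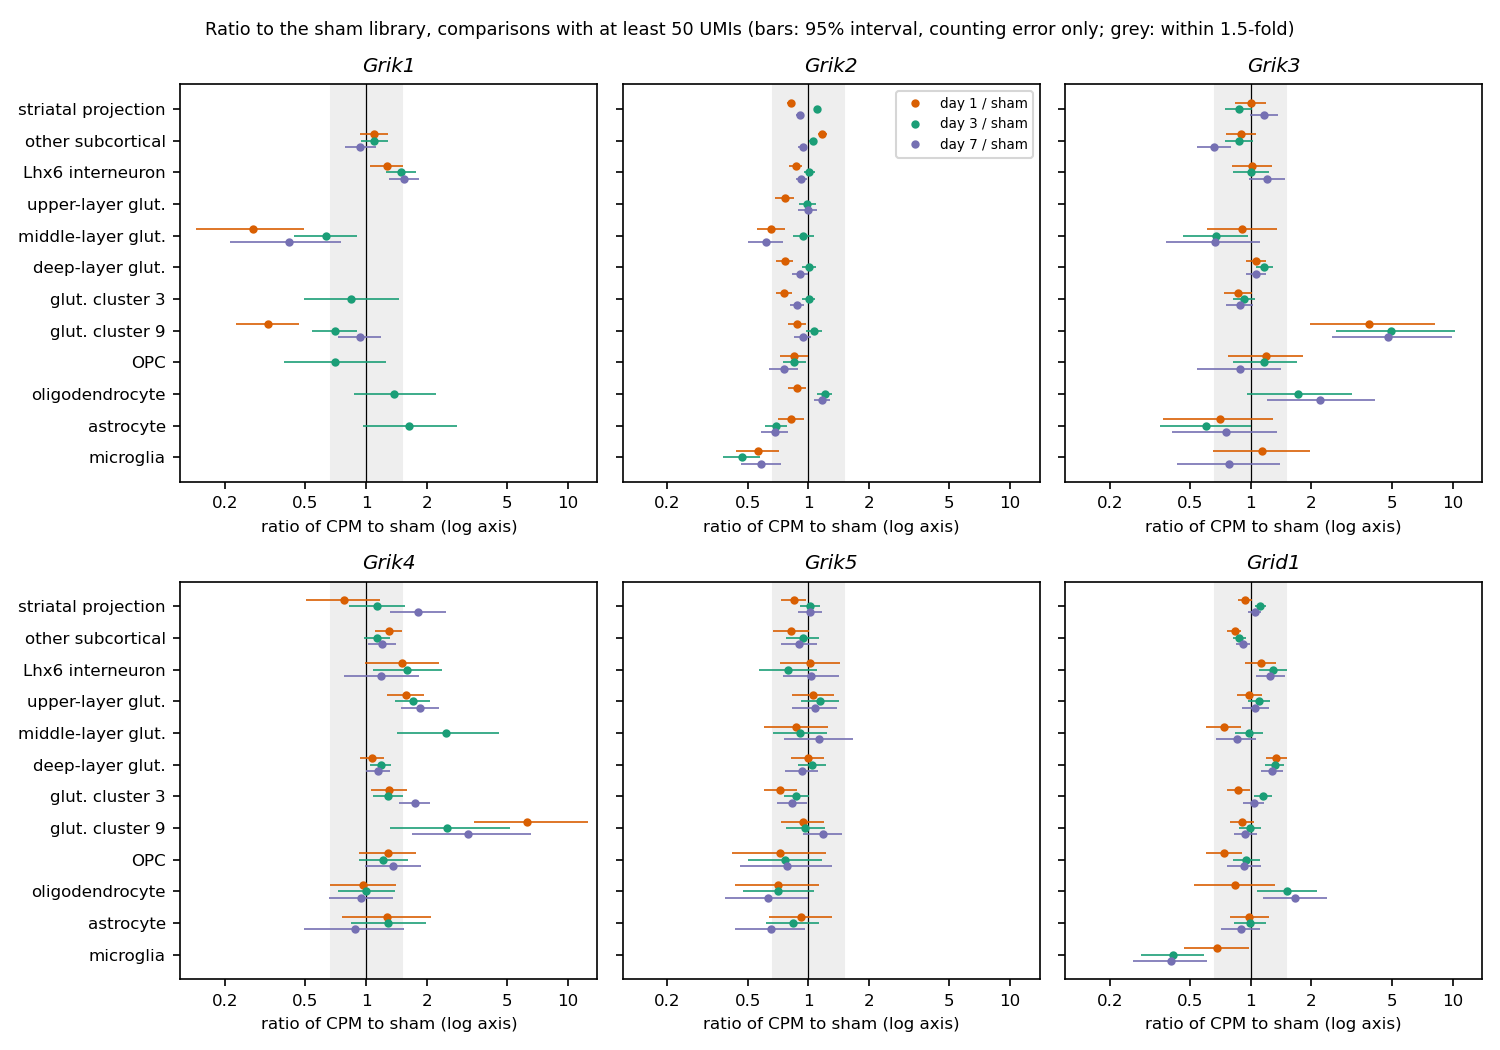
Ratio of CPM to the sham library on a log axis for each member and class with at least 50 UMIs, by day, with 95% intervals for counting error only and ratios within 1.5-fold in grey. Grik4 lies to the right of 1 in most classes, the widest ratios belong to glutamatergic cluster 9, and no ratio of Grik2 is past the fold upward.

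The genes that work with these receptors were taken as a list of 19. Past the fold upward were 10 of 121 comparisons on day 1, 9 of 134 on day 3 and 9 of 115 on day 7, and downward 3, 9 and 5, with median log2 ratios of -0.02, 0.09 and 0.03. The shares upward were 8.26, 6.72 and 7.83%, beside 6.42, 5.37 and 5.04% over all genes, and the shares downward were 2.48, 6.72 and 4.35%, beside 6.43, 6.11 and 8.12%.

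Of the auxiliary subunits, Neto1 was highest in striatal projection neurons, at 627 CPM over the summed libraries, and in deep-layer neurons, at 445 CPM. Neto2 was also highest in striatal projection neurons, at 229.6 CPM, and next in Lhx6 interneurons, at 164 CPM. Both were thus high in the class with the most Grik2. Neto1 was at 53.3 CPM in oligodendrocytes, which hold Grik2 with little of either auxiliary gene, since Neto2 was at 27.7 CPM. In glutamatergic cluster 9 both were past the fold upward on every day, with ratios of 1.77, 1.91 and 2.07 for Neto1 and 1.90, 1.88 and 2.10 for Neto2. In astrocytes Neto1 was lower on day 3, with a ratio of 0.417 (0.272 to 0.631), and on day 7, with 0.523 (0.312 to 0.846).

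Of the secreted ligands, which are short genes with few reads, Cbln1, Cbln2, Cbln3 and Cbln4, the cerebellins that bind delta receptors, were each at most 9.60 CPM in the 12 classes and C1ql2 at most 6.40 CPM. None of them could be compared with sham at this depth, and these levels are not comparable with those of longer genes. C1ql3, a secreted C1q-like protein of excitatory neurons that binds kainate receptors and neurexins in some synapses, was at 105 CPM in upper-layer neurons and 98.3 CPM in glutamatergic cluster 3, and at 194 CPM in cluster 20, where Grik4 peaked. C1ql3 was past the fold upward in 7 of 11 comparisons and downward in none, beside 6.42, 5.37 and 5.04% upward over all genes on the 3 days. The days of a class share 1 sham level, so the ratios of C1ql3 are not separate observations. Its ratios were 3.50 (1.93 to 6.80), 2.79 and 5.94 in glutamatergic cluster 9, 1.53 on day 1 and 2.34 (1.75 to 3.15) on day 7 in upper-layer neurons, and 1.91 (1.53 to 2.40) on day 7 in glutamatergic cluster 3. The remaining one was 1.79 (0.972 to 3.43) in oligodendrocytes on day 3. Grik4 was also past the fold in the 3 neuron classes, and besides in Lhx6 interneurons, middle-layer neurons and striatal projection neurons.

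Of the presynaptic partners, Nrxn2, a neurexin, was highest in OPCs at 564 CPM, and Nrxn3, also a neurexin, in Lhx6 interneurons at 8300 CPM. Nrxn3 in oligodendrocytes was past the fold on day 3, at 1133 CPM against 490.4 CPM, a ratio of 2.31 (2.06 to 2.60). On that day the markers of Lhx6 interneurons in oligodendrocytes were also highest, at 618 CPM against 423 CPM in the sham library, and cluster 24 held 34 of 439 oligodendrocyte nuclei against 14 of 324, and the part of either in this ratio was not tested. Of the scaffold proteins, Grip1 stood out in Lhx6 interneurons at 3622 CPM against 1073 CPM in the next class, and Grip2 was highest there too, at 59.0 CPM. Dlg1 was highest in oligodendrocytes at 599 CPM and had no ratio past the fold in 36 comparisons. Dlg4, which encodes PSD-95, was highest in striatal projection neurons at 134.6 CPM, and Dlg3, at 31.2 to 50.4 CPM, and Pick1, at 24.9 to 40.2 CPM, were even. Klhl17, the actinfilin gene, tied to the turnover of GluK2, was at 16.4 to 25.5 CPM with no ratio past the fold. The RNA editing enzymes that recode kainate receptor transcripts were lowest in oligodendrocytes, with Adarb1 at 165 CPM in glutamatergic cluster 9, 164 CPM in Lhx6 interneurons and 23.6 CPM in oligodendrocytes, and Adar at 142 CPM in the other subcortical neurons and 49.5 CPM in oligodendrocytes.

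**Figure D5:**
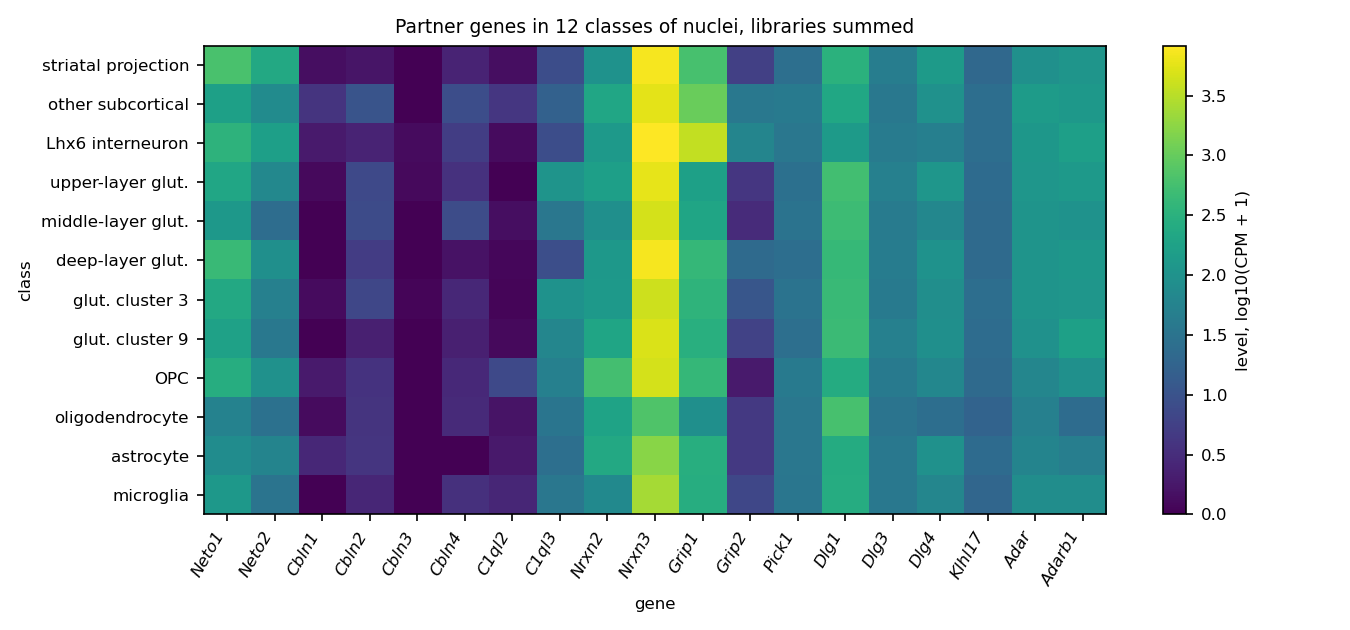
Level of the 19 other pathway genes in the 12 classes over the summed libraries, coloured by log10(CPM + 1). Since genes differ in length, colours are to be compared down a column, and there Neto1 and Neto2 peak in striatal projection neurons, Grip1 in Lhx6 interneurons and C1ql3 in upper-layer neurons.

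As a description of likeness, the log2(CPM + 1) of each member over the 12 classes, averaged over the libraries, was correlated with that of 6712 other genes. The classes share their libraries and differ in depth, so these values of Pearson's r over 12 points carry no test. Closest to Grik1 were Ank1 (0.88), Map3k4 (0.84) and Dner (0.83), and closest to Grik2 were Ranbp17 (0.85), Gm13052 (0.85) and Snrpn (0.83). Closest to Grik3 were Hs3st5 (0.90), Dlc1 (0.84) and Thsd7b (0.82), and closest to Grik4 were Dimt1 (0.82), Alg6 (0.77) and Zfp40 (0.75). Grik5 was most like Agap2 (0.95), Pxdn (0.93) and Camkk1 (0.90), and Grid1 was most like Fbxl19 (0.95), Adgrl3 (0.93) and Kcnd2 (0.91). Between the members, Grik5 and Grid1 were the most alike at 0.78, and all other pairs lay between -0.27 and 0.44.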

How the data were processed

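Nuclei of 4 libraries were profiled, 1 per group. The authors mapped reads to GRCm38 with STARsolo (STAR 2.7.3a), counted exons and introns against GENCODE vM8, collapsed UMIs and filtered those shared by genes, and deposited raw UMI counts per gene and barcode with no normalisation and no barcode filter. Strand was not stated in the sources used here. Their later removal of empty droplets and free RNA is not in these counts and was rebuilt only in part.

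Barcodes over 1000 UMIs were tested against the low-count droplets (10000 Monte Carlo draws, false discovery rate 0.001), 144 of 7919 were removed as doublets, and 7775 were normalised with sctransform 0.4.2, integrated and clustered with Seurat 5.3.0 (2990 features, 30 components, resolution 0.8) in R 4.3.3. Clusters were named from 299 markers, 295 of them in the files, and the naming rule was revised after clusters had been seen. Counts were summed per class and library and given as CPM with exact Poisson intervals, ratios with exact conditional binomial intervals and shares with Clopper-Pearson intervals, at 95%, for counting error only. PCR copies were collapsed by UMI. Ratios were checked on simulated data. With 23285489 UMIs or more per library, only comparisons of at least 50 UMIs were read. Other scalings were those of edgeR 4.0.16 (TMM) and DESeq2 1.42.0, as factors only. Positions are from GENCODE vM21, which matched 46488 of 46983 gene identifiers, Klhl17 not among them.

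Named were the members, 19 genes of a fixed pathway list (3 others of it are not reported here), and for each member the 3 genes with the highest Pearson correlation over 12 classes among genes with at least 200 UMIs in every library. Members and lists were chosen with earlier results of these data known. Leaving out the nucleus with the most UMIs of a member, or oligodendrocyte cluster 24, was an alternative chosen after seeing the data.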

Additional observations from a re-analysis of the deposited data

How the results depend on the processing

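No paired analysis was possible because each group held 1 library, and for the same reason no replicate could be left out. The counts of ratios past the fold upward on the 3 days (4, 8 and 8) became 2, 0 and 1 with each nucleus thinned to 1000 UMIs, and those downward (4, 4 and 8) became 2, 1 and 0. With a fold of 2 they were 2, 3 and 3 upward and 2, 2 and 2 downward. At resolution 1.6, where no cluster took the name of glutamatergic cluster 9, they were 2 upward and 1 downward on day 1 and 5 downward on day 7. With libraries merged and not integrated they were 5 upward and 2 downward on day 3 and 4 upward on day 7. Subtracting free RNA at 10% gave 7 downward on day 3, the mean of single nuclei gave 1 downward on day 3 and 4 on day 7, and both TMM and DESeq2 scaling gave 4 downward on day 7. With at least 10 UMIs there were 7 upward on day 1, 8 downward on day 3 and 14 downward on day 7. Without the nucleus with the most UMIs of the member there were 2 downward on day 3. The class highest for Grik4 was highest in 1 library after thinning and in 0 as the mean of single nuclei, where OPCs led, and that for Grik5 in 1 library after thinning. Log2 ratios that changed sign were Grik4 in glutamatergic cluster 9 on day 3 (-0.96 after thinning), Grik1 in middle-layer neurons on day 3 (0.76 after thinning and 0.14 at resolution 1.6), Grik3 in middle-layer neurons on day 7 (0.36 after thinning and 0.067 as the mean of single nuclei) and Grid1 in oligodendrocytes on day 3 (-0.085 after thinning) and on day 7 (-0.097 without cluster 24, an alternative chosen after seeing the data). The share with a partner subunit was 86.0% at 2000 UMIs. Thinning leaves fewer UMIs per class and gives each nucleus equal weight, and the cause of the shifts was not tested. TMM moved the median gene by -0.10 to 0.10 on the log2 scale and DESeq2 by -0.12 to 0.10.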

Other observations

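Clusters without a class name also held the members, as levels over the summed libraries. Cluster 10, with 272 nuclei and led by Pde1c and Htr4, held Grik2 at 2201 CPM (2144 to 2259.6) and Grid1 at 812 CPM. Cluster 13, with 187 nuclei and led by Chst9 and Foxp2, held Grik2 at 1385 CPM and Grid1 at 744 CPM. Both were far above the endothelial background for Grik2. Their Grik1, at 11.4 CPM (7.66 to 16.4) and 14.4 CPM (8.81 to 22.3), was below the droplet level and overlapped the endothelial interval, and 1 library gave 17 of the 29 UMIs in cluster 10 and 13 of the 20 in cluster 13.

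Cluster 29, with 44 nuclei and led by Drd3 and Stac, held Grik1 at 231 CPM (168 to 310) and no UMI of Grik3. Cluster 31, with 26 nuclei and led by Ly86 and Inpp5d, genes of microglia, held Grik2 at 2229 CPM and Grid1 at 602 CPM, against 506 and 183 CPM in the named microglia. Markers of direct-pathway striatal projection neurons, 16 of 17 detected, summed to 6108 to 9669 CPM in cluster 31 against 599 to 1996 CPM in the named microglia, and microglial markers to 1882 to 2665 CPM against 7737 to 11856. Its levels of Grik2 and Grid1 were nearer those of striatal projection neurons, at 2525 and 772 CPM, and whether its droplets held more than 1 nucleus was not tested.

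Named classes under 30 nuclei in a library were read too. Glutamatergic cluster 25, with 65 nuclei and led by Nr4a2, held Grid1 at 725 CPM and Grik4 at 239.7 CPM, and glutamatergic cluster 19, with 114 nuclei, held Grik2 at 2013 CPM, more than any glutamatergic class of the 12. Subcortical glutamatergic neurons, with 170 nuclei, held Adarb1 at 531 CPM, over 3 times its highest level in the 12 classes.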
